A study of Mus musculus with 15 samples.

Results

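The comparison was between RNA crosslinks of GFP-TTP and of its phosphorylation site mutant GFP-TTP-AA in macrophages that had been exposed to lipopolysaccharide (LPS) for 4 h. Its members are all crosslink sites of the GFP-TTP list and the GFP-TTP-AA list at that time, 17469 of the 162273 sites in the 6 lists of the series, and they come from 4 of the 15 samples. A crosslink site is the single nucleotide next to which reverse transcription stopped at a protein crosslinked to the RNA, found by individual-nucleotide resolution crosslinking and immunoprecipitation (iCLIP), and its value is the number of unique cDNAs that ended there. In the lists the sign of that number gives the strand. Only sites that the peak calling accepted at a false-discovery rate of 0.05 are listed, so a gene at 0 had no accepted site and may still have been bound.

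Both groups were bone marrow-derived macrophages of TTP-deficient C57BL/6 mice, immortalised with the oncogenes hcmyc and hRasG12V, selected for CD11b and F4/80, transduced with a retrovirus carrying a tetracycline-inducible GFP fusion and sorted for GFP. One group expressed the coding sequence of TTP and the other that of TTP-AA, a mutant with alanine in place of the serines that MK2 (MAPKAPK2) phosphorylates. All cells received doxycycline for 6 h to induce the fusion, LPS for 4 h and UV-C light, and RNA was recovered with a GFP nanobody. The fusion therefore replaced the natural Zfp36 gene, its promoter and its 3′UTR, and the level of RNA in the cells was not part of these lists: more binding of an RNA and more of that RNA cannot be told apart.

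TTP (tristetraprolin, the product of Zfp36) is a zinc-finger protein that binds AU-rich elements in the 3′UTRs of mRNAs, of which AUUUA is the core, and recruits the machinery that removes the poly(A) tail. In macrophages its best known targets are the mRNAs of TNF and of chemokines made after LPS. Phosphorylation by MK2 makes TTP bind 14-3-3 proteins and lowers its destabilising activity, and TTP-AA cannot be modified in this way.

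The sequences below show where the crosslinks lay in the mRNAs and small RNAs described here. Each run has 30 bases, is read 5′ to 3′ in the sense of the RNA from GENCODE M21 transcripts on GRCm38, and has the crosslinked nucleotide at base 15. In the mRNA runs, capitals mark AUUUA (written ATTTA) and the polyadenylation signal AAUAAA (written AATAAA). In the Rny3 run the capital is the crosslinked nucleotide. The Ybx3 site shown, nt 481 of the 3′UTR, ties with nt 478 in the GFP-TTP list, at 4 cDNAs each.

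Tnf, strongest GFP-TTP site, chr17:35199645-35199674, minus strand: cttatgaatgtATTTAtttggaaggccggg
Tnf, strongest GFP-TTP-AA site, chr17:35199423-35199452, minus strand: gaacctctgctccccacgggagccgtgact
Ccl3, strongest GFP-TTP site, chr11:83648001-83648030, minus strand: tatttgtgactATTTAttctgaaagacttc
Actb, strongest GFP-TTP site, chr5:142903595-142903624, minus strand: ttttgactcaggATTTAaaaactggaacgg
Actb, strongest GFP-TTP-AA site, chr5:142903267-142903296, minus strand: ttcatttttgtttttaatttctgaatggcc
Ybx3, strongest site in both lists, chr6:131364943-131364972, minus strand: tttatgcccttATTTAttcctaggatgagg
Atp6v0b, strongest GFP-TTP site, chr4:117884562-117884591, minus strand: gccctactgttATTTAttgctggttttcct
Tmsb4x, strongest GFP-TTP-AA site, chrX:167207099-167207128, minus strand: atttttttaatatgcaAATAAAgttttaaa
Gnb2, strongest GFP-TTP-AA site, chr5:137528136-137528165, minus strand: tttcagtttttccataaaggaaccacttcc
Rny3, strongest GFP-TTP-AA site, chr6:47781660-47781689, plus strand: atcacaaccagttaCagatttctttgttcc
Lars2, strongest site in both lists, chr9:123461945-123461974, plus strand: cagaaaagttaccacagggataactggctt

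For GFP-TTP, 29060 cDNAs fell on 8052 sites, and for GFP-TTP-AA 19167 cDNAs fell on 9417 sites. Each list pools 2 libraries, so no replicate check exists, no p-value can be given, and the 95% intervals below (Wilson for a share, Newcombe for a difference of shares, exact conditional binomial for a ratio) cover counting error only. Neighbouring sites of 1 gene are not independent, which makes the intervals too narrow. The GFP-TTP cDNAs were the more concentrated: 8 loci held 50% of them, against 160 loci for GFP-TTP-AA, and a single rRNA locus on chromosome 17 (positions 39843013 to 39848788) held 9300 and 2496 cDNAs, or 32.0% and 13.0%. Of 15 macrophage marker genes, Lyz2 (7 cDNAs), Csf1r and Itgam (2 each) had a site for GFP-TTP and Ctsb (6 cDNAs) for GFP-TTP-AA, and the other 11 were at 0 in both. None of 20 markers of other cell types had a site. Zfp36 itself had no site in either list, so the lists carry no check of the fusions.

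The cDNAs of GFP-TTP-AA lay more often in 3′UTRs and less often in rRNA and in 5′UTRs. 3′UTRs held 906 cDNAs of GFP-TTP and 1000 of GFP-TTP-AA, a share ratio of 1.67 (interval 1.53 to 1.83). Because the rRNA locus took so different a share, leaving it out of both totals multiplies the ratio of every region or gene without sites in the locus by 0.782 (-0.36 on the log2 scale), and the 3′UTR ratio becomes 1.31 (1.19 to 1.43). 5′UTRs were lower in GFP-TTP-AA under either total, with 197 and 76 cDNAs and ratios of 0.585 (0.443 to 0.766) and 0.457 (0.346 to 0.599). The ratio for coding sequence, with 244 and 150 cDNAs, was 0.932 (0.755 to 1.15) with the locus and 0.729 (0.591 to 0.897) without it. Introns changed direction with the total, from 1.21 (1.16 to 1.26) to 0.944 (0.908 to 0.982). Non-coding RNA exons and intergenic sequence lose sites of their own with the locus: the former turned from 0.555 (0.533 to 0.576) to 1.13 (1.05 to 1.22), and the latter went from 1.21 to 1.00 (0.977 to 1.03). Counted by sites instead of cDNAs and without the locus, the 3′UTR share was 8.17% for GFP-TTP and 8.04% for GFP-TTP-AA. Among mRNA regions alone, 3′UTRs held 67.3% of the GFP-TTP and 81.6% of the GFP-TTP-AA cDNAs.

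**Figure D1:**
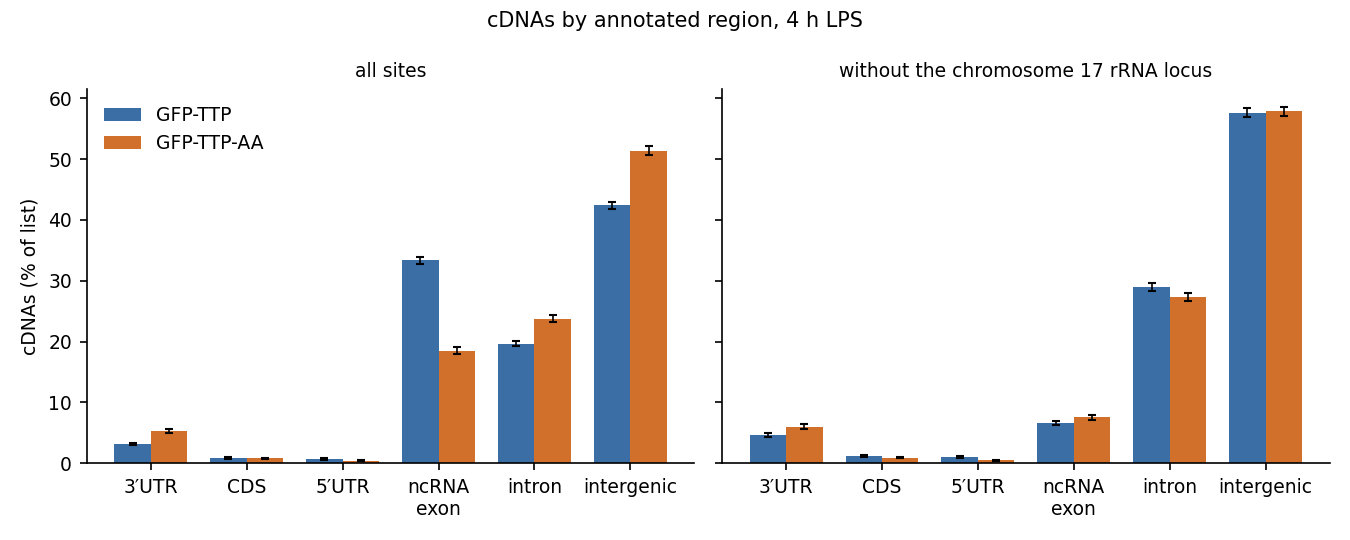
Share of each list's cDNAs (percent, y axis) by annotated region (x axis) for GFP-TTP and GFP-TTP-AA, with all sites on the left and without the chromosome 17 rRNA locus on the right; bars are single pooled lists and error bars are 95% Wilson intervals. The 3′UTR bar is higher for GFP-TTP-AA in both panels (3.12% and 5.22% on the left, 4.59% and 6.00% on the right), whereas non-coding RNA exons are higher for GFP-TTP on the left (33.3% and 18.5%) and for GFP-TTP-AA on the right (6.65% and 7.53%).

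At the level of genes, 299 had a 3′UTR site and 26 of them had one in both lists. These shared genes held 543 of the GFP-TTP 3′UTR cDNAs (59.9%) but 342 of those of GFP-TTP-AA (34.2%). The genes listed for 1 protein were mostly thin: 71 of the 101 genes listed for GFP-TTP alone and 112 of the 172 listed for GFP-TTP-AA alone rested on 3 cDNAs or fewer. For 25 genes with at least 10 3′UTR cDNAs over both lists, a share at least 4-fold higher in 1 list was taken as a call, with an absent count set at 3 cDNAs. By this rule the mutant was higher in 9 genes (36%) and GFP-TTP in 1 (4%). The balance of these calls was partly set by the rule: 8 of the 9 genes had no GFP-TTP cDNA and passed the minimum through the mutant list alone, and a gene absent from the other list was called from 10 cDNAs of GFP-TTP-AA but only from 19 of GFP-TTP. Over 3′UTR cDNAs as the total the calls were 3 and 2. The median ratio over the 25 genes was 0.981, with 12 of them higher in the mutant list and 13 in the GFP-TTP list.

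**Figure D2:**
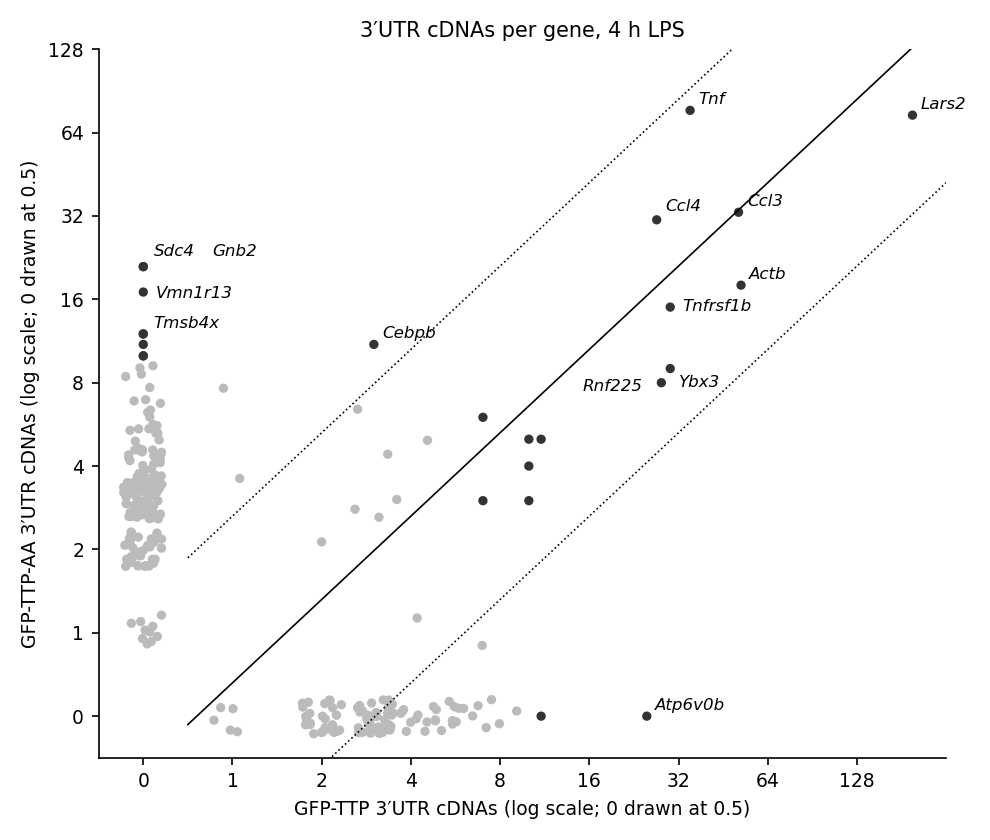
3′UTR cDNAs per gene in the GFP-TTP list (x axis) and the GFP-TTP-AA list (y axis), on log axes with 0 drawn at 0.5. Dark points are the 25 genes with at least 10 cDNAs over both lists, grey points are the other genes (jittered), the solid line marks equal shares of the list and the dotted lines a 4-fold difference. Sdc4 and Gnb2 share a point at 0 and 21 cDNAs, Tnf is the gene with most GFP-TTP-AA cDNAs (77), and Atp6v0b lies on the x axis at 25.

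The cytokine and chemokine genes held a larger share of the GFP-TTP-AA cDNAs, largely through Tnf. Of 31 genes of this list, 10 had a 3′UTR site, all 10 in the GFP-TTP-AA list and 4 of them in the GFP-TTP list as well, beside 66.2% and 42.5% of all 299 genes. Together they held 117 cDNAs for GFP-TTP and 176 for GFP-TTP-AA, a share ratio of 2.28 (1.80 to 2.91). Over 3′UTR cDNAs alone the ratio was 1.36 (1.07 to 1.74), and 1.09 (0.808 to 1.48) without Tnf. Tnf, the gene of the cytokine TNF, had 35 and 77 cDNAs (ratio 3.34, 2.21 to 5.13). The ratio stayed above 1 when the rRNA locus was left out (2.61, 1.73 to 4.01) and when only 3′UTR cDNAs formed the total (1.99, 1.32 to 3.06). The chemokine genes Ccl3 and Ccl4 were closer to equal. Ccl3 had 51 and 33 cDNAs (0.981, 0.613 to 1.55) and Ccl4 had 27 and 31 (1.74, 1.01 to 3.03, and 1.04, 0.601 to 1.81, over 3′UTR cDNAs alone). The chemokine genes Ccl2 (10 cDNAs), Cxcl2 (8), Ccl9 (6) and Cxcl10 (1), together with Spp1 (osteopontin, 8) and Gdf15 (1), were at 0 for GFP-TTP. Ccl7 had 4 and 1.

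Of 27 genes singled out by the study as TTP targets, 19 had a 3′UTR site: 8 for GFP-TTP, 18 for GFP-TTP-AA and 7 for both. Since the study chose these genes on iCLIP of the same cells, this is not independent evidence of a direction. Of the 12 with at least 10 cDNAs, 5 (41.7%) were called higher in the mutant list and 0 in the GFP-TTP list, with a median ratio of 2.54, a share near the 36% of all 25 genes. The called genes were Sdc4 (the cell surface proteoglycan syndecan-4; 21 cDNAs), Tmsb4x (the actin-binding peptide thymosin beta 4; 12), B2m (the light chain of MHC class I; 11), Ccl2 and Cdkn1a (the cell cycle inhibitor p21; 10). All 5 were at 0 for GFP-TTP, so their shares were between at least 5.05-fold (Ccl2, Cdkn1a) and at least 10.6-fold higher (Sdc4).

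The other calls for GFP-TTP-AA were Gnb2, a G protein beta subunit, with 0 and 21 cDNAs, the pheromone receptor gene Vmn1r13 with 0 and 17, the histone gene Hist1h4d with 0 and 12, and Cebpb, a transcription factor gene of the acute phase response, with 3 and 11 (ratio 5.56, 1.47 to 31.0). The gene called for GFP-TTP was Atp6v0b, which encodes a subunit of the vacuolar proton pump. Its 25 cDNAs lay on 18 nucleotides, 16 of the cDNAs within 20 nt of its single AUUUA. With its GFP-TTP-AA count of 0 set at 3, its share was 5.50-fold higher for GFP-TTP. The interval of its GFP-TTP-AA to GFP-TTP ratio ran from 0 to 0.241. At the other times Atp6v0b had more GFP-TTP-AA cDNAs, 7 and 14 without LPS and 83 and 211 after 1 h. These counts are not scaled to the size of the lists.

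Several genes had sites in both lists and more GFP-TTP cDNAs. Actb, the cytoskeletal beta-actin gene, had 52 and 18 (0.525, 0.289 to 0.912). Tnfrsf1b, which encodes TNF receptor 2, had 30 and 15 (0.758, 0.379 to 1.45), and Ybx3, a cold-shock domain protein gene, had 30 and 9 (0.455, 0.190 to 0.983). After 1 h the unscaled counts were higher for GFP-TTP-AA in Actb (311 and 1116), Tnfrsf1b (6 and 73) and Ybx3 (134 and 801). Without LPS this held for Actb (42 and 140) but not for Tnfrsf1b (6 and 0) or Ybx3 (71 and 56). Lars2, the mitochondrial leucyl-tRNA synthetase gene, had the most of all, 197 and 74 (0.570, 0.430 to 0.748). Its 3′UTR has no AUUUA, and 98 and 31 of its cDNAs lay at the 1 nucleotide printed above, in a sequence that is also part of large-subunit rRNA, so their origin cannot be told apart. Rnf225 (28 and 8) and the 11 GFP-TTP cDNAs of Pfn1 lay entirely at sequence that also occurs, on either strand, in annotated structural RNAs or the chromosome 17 locus. At the strongest Pfn1 site the surrounding sequence included a long run of U. Such shared sequence took 108 of the GFP-TTP 3′UTR cDNAs (11.9%, 16 genes) and 36 of those of GFP-TTP-AA (3.6%, 8 genes), and included 7 of the 21 cDNAs of Sdc4. The search flagged none of the Lars2 cDNAs, so it did not find the rRNA match stated above and may miss other rRNA sequence. These counts therefore do not hold Lars2, with which they would be 305 (33.7%) and 110 (11%). Without the shared sequence, but with Lars2, the 3′UTR share ratio was 1.83 (1.66 to 2.01). Without both it was 2.23 (2.01 to 2.48).

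Outside the cytokines, most immune and regulatory lists were nearly empty at this depth, and a site in 1 list alone, as in 91.3% of all 299 3′UTR genes, says little about a member. Of 25 feedback inhibitor genes, Ier3 had 6 GFP-TTP cDNAs and Socs3 had 9 GFP-TTP-AA cDNAs. Of 26 genes of TLR4, NF-κB and p38 signalling, Myd88, Rel (3 cDNAs each) and Nfkb1 (1) had 3′UTR sites in the GFP-TTP-AA list. Of 30 genes induced late by LPS, 7 had sites, with 13 and 15 cDNAs in all. Acod1, which makes itaconate, had 7 and 6, Il1rn had 4 and 0, and Sod2 had 0 and 5. Of 19 immediate early genes, Jun (5 cDNAs) and Jund (3) had 3′UTR sites in the GFP-TTP list, and Klf6 had 2 GFP-TTP-AA cDNAs elsewhere. Of 33 mRNA decay genes, Pan3 (8), a subunit of a deadenylase, and Pabpc1 (6), a poly(A)-binding protein, were listed for GFP-TTP-AA, and the 14-3-3 gene Ywhae (5) for GFP-TTP. All 8 cDNAs of Pan3 and all 4 of Il1rn lay at sequence shared with structural RNAs. Of 67 histone genes, Hist1h3c had 8 GFP-TTP cDNAs and Hist1h4d its 12 of GFP-TTP-AA.

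Within single 3′UTRs the 2 proteins did not always crosslink at the same place. The Tnf 3′UTR (chr17:35199381-35200144, 764 nt) has 8 AUUUA, some of them overlapping, from nt 421 to nt 635 after the stop codon. All 35 GFP-TTP cDNAs lay between nt 469 and 495. GFP-TTP-AA had 31 cDNAs between nt 465 and 496 and another 46 between nt 693 and 752, beyond the last AUUUA and close to the 3′ end, where GFP-TTP had none. This distal stretch held 59.7% (48.6 to 70.0) of the GFP-TTP-AA cDNAs of Tnf. Over the AUUUA stretch alone the share ratio was 1.34 (0.801 to 2.24), an interval that includes equal shares. After 1 h of LPS far more cDNAs were available. The distal stretch beyond the AUUUA stretch then held 0.963% of the Tnf cDNAs of GFP-TTP and 2.27% of those of GFP-TTP-AA.

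In Ccl4 the strongest site was the same nucleotide in both lists, nt 189 of the 3′UTR, with 8 and 6 cDNAs. Beyond the AUUUA stretch GFP-TTP had none and GFP-TTP-AA had 14 cDNAs (45.2% of its total). After 1 h of LPS the order was the other way, with 17.9% (10.6 to 28.7) of the Ccl4 cDNAs of GFP-TTP and 10.3% (8.44 to 12.4) of those of GFP-TTP-AA beyond it. In Ccl3, by contrast, 51 of 51 and 31 of 33 cDNAs lay in the AUUUA stretch. In Actb, 21 of the 52 GFP-TTP cDNAs (40.4%) lay around the single AUUUA at nt 186 to 190 and none of GFP-TTP-AA, whose 18 cDNAs all fell further along, between nt 513 and 522, where GFP-TTP also had its second cluster. In Tnfrsf1b the AUUUA stretch held 26 and 9 cDNAs.

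**Figure D3:**
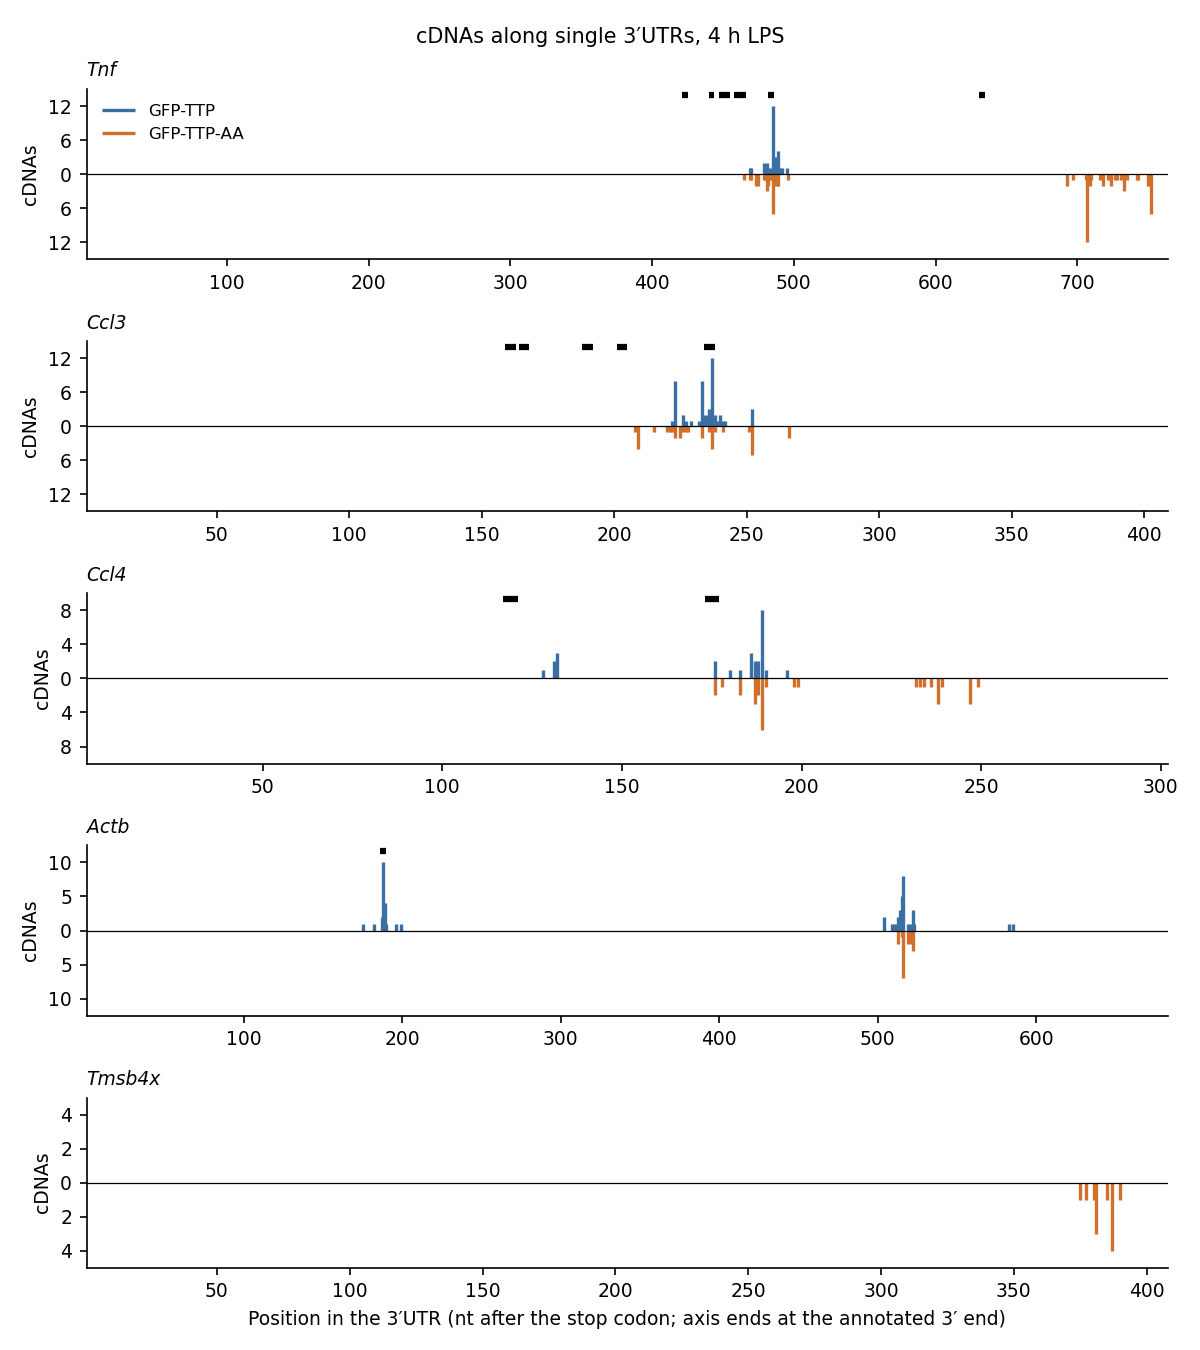
cDNAs per crosslinked nucleotide (y axis, GFP-TTP upward in blue and GFP-TTP-AA downward in orange) along the 3′UTRs of Tnf, Ccl3, Ccl4, Actb and Tmsb4x (x axis, nt after the stop codon, ending at the annotated 3′ end); black bars above each panel mark AUUUA. In Tnf both proteins peak near nt 485 and only GFP-TTP-AA has a second group from nt 693 to 752, while in Tmsb4x all 12 cDNAs are of GFP-TTP-AA and lie between nt 375 and 390 of 408.

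The distal position was seen over the whole GFP-TTP-AA list. Of its 701 3′UTR sites, 201 (28.7%, 25.4 to 32.1) lay in the last 100 nt of the annotated 3′UTR, in 63 genes, against 57 of 537 (10.6%, 8.28 to 13.5) in 20 genes for GFP-TTP. The difference was 18.1 percentage points (13.7 to 22.2). All positions of the same 3′UTRs, weighted by the sites of each gene, give 14.2% for the GFP-TTP-AA genes and 11.7% for the GFP-TTP genes. In the last 50 nt the shares were 19.8% and 2.61%, and the bin of 25 nt next to the end held no GFP-TTP site. Without Tnf the last 100 nt held 27.1% and 10.9%. In the 26 genes that both lists share, Tnf among them, it held 41 of 181 sites (22.7%) and 27 of 220 (12.3%). Tnf gave 21 of the former and 0 of the latter. Tnf had 38 GFP-TTP-AA and 14 GFP-TTP sites in all. The gap in these shared genes therefore came largely from Tnf. It was not recomputed without Tnf and is not shown for the other shared genes. In genes listed for 1 protein alone, which differ between the lists, the last 100 nt held 160 of 520 GFP-TTP-AA sites (30.8%). For GFP-TTP it held 30 of 317 (9.46%). The genes with most GFP-TTP-AA cDNAs in the last 100 nt were Tnf (46), Gnb2 (21), Ccl4 and Tmsb4x (12 each) and Socs3 (9, all within 20 nt of AUUUA), followed by Cxcl2, Spp1, the ferritin gene Fth1 and the oxidative stress factor gene Nfe2l2 (8 each), all with none for GFP-TTP. For GFP-TTP the leading genes were Pfn1 (11), at the shared sequence noted above, and Entr1, Ybx3, Itga5 and Nckap5l (7 each).

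**Figure D4:**
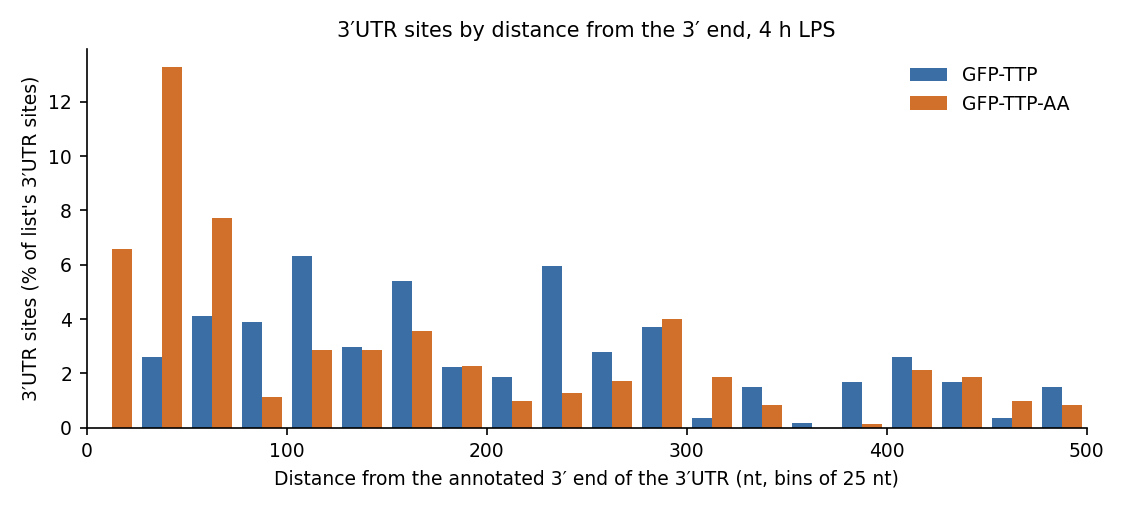
Share of each list's 3′UTR sites (percent, y axis) by distance from the annotated 3′ end (x axis, bins of 25 nt up to 500 nt) for GFP-TTP and GFP-TTP-AA. The bars of GFP-TTP-AA are the higher ones in the 3 bins nearest the end, which together with the next bin hold 28.7% of its sites and 10.6% of those of GFP-TTP.

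The sequence around the sites differed as well. The polyadenylation signal AAUAAA lies a short way upstream of the end of most mRNAs. It was found within 20 nt of 117 GFP-TTP-AA sites (16.7%, 14.1 to 19.6) in 42 genes and of 7 GFP-TTP sites (1.30%, 0.633 to 2.67) in 5 genes, a difference of 15.4 points (12.47 to 18.4), where all positions of the same 3′UTRs gave 6.11% and 4.98%. Of the 117 GFP-TTP-AA sites near AAUAAA, 84 lay in the last 100 nt. Nearness to AAUAAA therefore largely restates the distal position. The extended AU-rich motifs were nearer to GFP-TTP sites: UAUUUAU lay within 20 nt of 25.5% of GFP-TTP and 14.7% of GFP-TTP-AA sites, and UUAUUUAUU of 11.2% and 2.85%, with 2.85% and 2.84%, and 1.00% and 0.601%, over all positions. These motifs contain one another and AUUUA. The GU-rich UGUGU lay within 20 nt of 12.7% of GFP-TTP and 6.85% of GFP-TTP-AA sites, against 7.83% and 8.09% of all positions. The difference was -5.82 points (-9.31 to -2.50). Among sites outside the last 100 nt, AUUUA was near 40.2% of GFP-TTP and 31.4% of GFP-TTP-AA sites, so the lower share of GFP-TTP-AA was not limited to the distal sites. Both shares were several times the 8.67% and 8.23% of all positions. At the crosslinked nucleotide itself, U made up 63.5% of GFP-TTP and 54.4% of GFP-TTP-AA 3′UTR sites (30.2% and 30.4% of all positions) and A made up 15.6% and 23.4%.

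The distal shift had the same direction at the other times, with the other 4 lists. The last 100 nt held 23.0% of GFP-TTP and 32.8% of GFP-TTP-AA 3′UTR sites without LPS, and 12.8% and 18.2% after 1 h. All positions of the same 3′UTRs gave 11.5% and 13.0% without LPS, and 11.7% and 10.8% after 1 h. AAUAAA was near 5.78% and 11.6% without LPS and 2.35% and 5.13% after 1 h. For AAUAAA all positions gave 5.26% and 5.47% without LPS, and 5.28% and 5.21% after 1 h. After 1 h the GFP-TTP-AA share was therefore near that of all positions, and the GFP-TTP share was below it. The gap of 18.1 points at 4 h was the widest of the 3 times. No test of a change with time was possible on pooled lists.

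Part of the crosslinks of the 2 proteins fell on the same nucleotides. In 3′UTRs, 77 nucleotides in 14 genes were in both lists (59 without Lars2), 43 of them within 20 nt of AUUUA, and they held 341 GFP-TTP and 179 GFP-TTP-AA cDNAs. Such nucleotides were 14.3% of the GFP-TTP sites and 10.98% of the GFP-TTP-AA sites, against 0.708% and 0.542% of all positions of the same 3′UTRs. Within 15 nt of a GFP-TTP-AA site lay 29.4% of the GFP-TTP sites in 3′UTRs. That share was higher in non-coding RNA exons (79.3%), intergenic sequence (68.4%) and introns (46.2%), and lower in 5′UTRs (24.4%) and coding sequence (17.8%). From the GFP-TTP-AA side these shares were, in the same order, 18.1%, 79.6%, 33.6%, 28.8%, 33.3% and 16.7%.

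Non-coding RNA classes differed in both directions. Spliceosomal snRNA genes held 289 GFP-TTP and 585 GFP-TTP-AA cDNAs, a share ratio of 3.07 (2.66 to 3.55), and 2.40 (2.08 to 2.77) without the rRNA locus. The class misc_RNA, which holds the Y RNAs and 7SK, had 73 and 203 (4.22, 3.21 to 5.59). Rny3, a Y RNA bound by the Ro60 protein, had 12 and 93 cDNAs (ratio 11.8, 6.42 to 23.6), Rny1 had 23 and 60 (3.96), and Rn7sk, which holds the elongation factor P-TEFb inactive, had 30 and 49 (2.48, 1.54 to 4.04). Rny3 had more GFP-TTP-AA cDNAs in the other lists too, 377 and 949 without LPS and 121 and 850 after 1 h. Lower for GFP-TTP-AA were rRNA genes outside the chromosome 17 locus (286 and 93; 0.493, 0.386 to 0.625), mitochondrial rRNA and tRNA (197 and 77; 0.593, 0.449 to 0.775), among them mt-Rnr2 with 170 and 76, and the provisional transcripts of class TEC (149 and 31; 0.315, 0.207 to 0.467). Rmrp, the RNA of RNase MRP, had 17 and 20 cDNAs with the same strongest nucleotide in both lists. These RNAs exist in many near-identical copies and pseudogenes, so which copy was bound is uncertain.

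**Figure D5:**
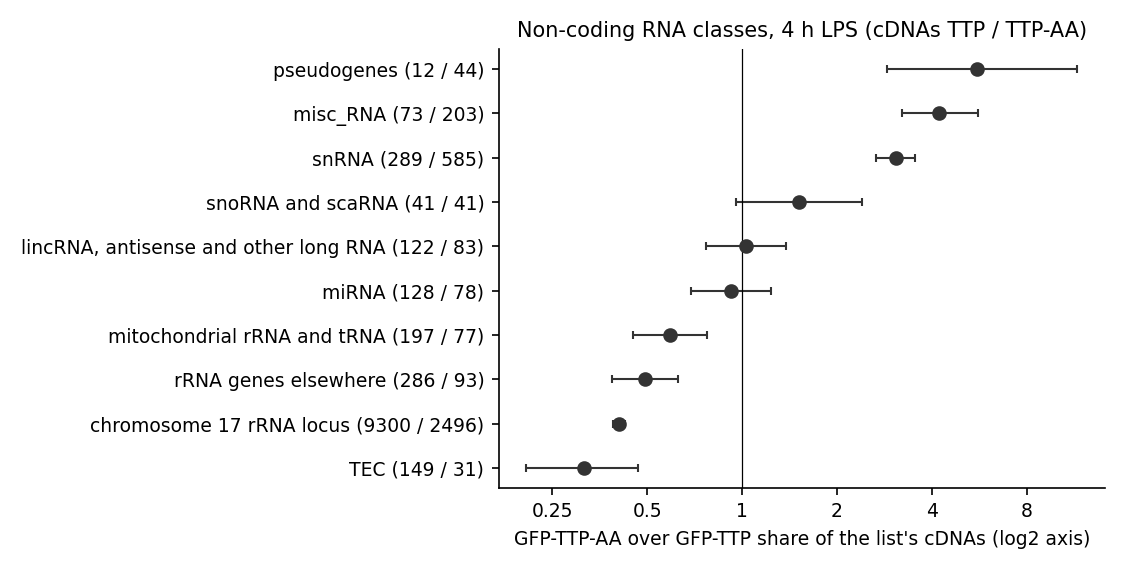
Ratio of the GFP-TTP-AA to the GFP-TTP share of the list's cDNAs (x axis, log2 scale) for classes of non-coding RNA (y axis, cDNAs of GFP-TTP and GFP-TTP-AA in brackets); points are single pooled lists, bars are 95% exact conditional intervals and the vertical line marks equal shares. Pseudogenes, misc_RNA and snRNA lie right of 1 with their whole interval, and mitochondrial RNA, both rRNA groups and TEC lie left of it.

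Over all regions, 202 genes had at least 10 cDNAs, of which 58 (28.7%) were at least 4-fold higher in the mutant list and 12 (5.94%) in the GFP-TTP list. The same limit applies: 36 of the 58 had no GFP-TTP cDNA, and 19 genes with no GFP-TTP-AA cDNA had too few of GFP-TTP to be called. With a pseudocount of 0.5 the calls were 56 and 35, and without the rRNA locus 44 and 25. Pde1c, a phosphodiesterase gene, had 65 and 871 cDNAs in its introns (20.3, 15.8 to 26.6), on 10 nucleotides, and Xlr5a had 10 and 149 (22.6). Neither kept one direction over time: Pde1c had 190 and 400 cDNAs without LPS and 239 and 154 after 1 h, and Xlr5a 89 and 50, then 35 and 83. The snRNA gene Gm24497 (4 and 45), Gm22063 (0 and 30) and Lrp1b (0 and 28) followed. In the other direction were Rtn1 (47 and 0), 6530403H02Rik (43 and 2), Wdr92 (40 and 3), Atp11a (39 and 2) and AA474408 (107 and 11). The intronic sites with most GFP-TTP cDNAs were in Cdk8 (1026 and 197) and Cmss1 (895 and 264), followed by Gm19951 (214 and 77). The intergenic sequence with most GFP-TTP cDNAs was a bin of 1000 nt on chromosome 11 with 1177 and 353. Sequence shared with structural RNAs was looked for at 3′UTR sites only. Whether these intronic and intergenic cDNAs came from rRNA-like sequence outside the chromosome 17 locus was not tested.

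Coding sequence and 5′UTRs held few cDNAs per gene. The coding sites of Mroh6 (15 and 3 cDNAs), Vsig8 (15 and 4) and Ccn1 (14 and 5) led the GFP-TTP list, and Zfp654 (6 and 7) and Washc1 (10 and 6) the GFP-TTP-AA list. In 5′UTRs, Wtap, which encodes a subunit of the complex that methylates adenosines in mRNA, had 10 and 25 cDNAs (3.79, 1.76 to 8.84) and Grcc10 had 0 and 17. Dennd4a (18 and 0), Gpd2 (16 and 5) and Cmc4 (14 and 0) were higher for GFP-TTP.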

How the data were processed

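iCLIP libraries of GFP-TTP and GFP-TTP-AA cells after LPS were analysed from the deposited lists, 1 per protein and time. The authors identified unique cDNAs by 4 random barcode bases (256 barcodes per position and library), mapped reads to mm10 (Bowtie, per the submitters' processing notes; version not given in the sources used here), pooled the libraries and kept sites with a false-discovery rate below 0.05 with 15 nt flanks. The deposited score in column 4 is the signed count of cDNAs per nucleotide. The random barcodes limit how many cDNAs a nucleotide can show: 5 sites in each 4 h list reached 128 or more.

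Sites were assigned by strand, in the order 3′UTR, CDS, 5′UTR, non-coding exon, intron and intergenic, to GENCODE M21 on GRCm38 (later than the Ensembl 75 annotation of the study) with bedtools 2.31.1, and values were computed with scipy 1.17.1, pandas 2.3.3 and numpy 2.4.6 under Python 3.11.15. No genome sequence was used, so bases and motifs on the sense strand (the core AUUUA, the extended UAUUUAU and the nonamer UUAUUUAUU, the GU-rich UGUGU and the signal AAUAAA) were read only in annotated transcripts. Shared sequence means a run of 18 bases within 15 nt of a 3′UTR site that also occurs in an annotated structural RNA or a gene of the chromosome 17 locus. Either strand of those RNAs counted, and runs of a single base were not filtered out. Genes called had at least 10 cDNAs over both lists and a 4-fold difference in share of the list, with counts under 3 set at 3. Members and lists were chosen with earlier results of these data known. Named genes were those with most cDNAs per list and region, the largest 4-fold differences, 3′UTR genes with at least 3 cDNAs in each list and listed members of the fixed gene lists. AAUAAA, the 3′ ends, the shared sequence and the genes Fth1, Nfe2l2, Entr1, Itga5 and Nckap5l were chosen after the data were seen. The scripts were tested on simulated data.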

Additional observations from a re-analysis of the deposited data

How the results depend on the processing

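Of 11 results under 63 alternatives, 34 values moved by less than counting error or by under 1.5 times for a count, 26 moved further and 3 changed direction. The cause was not tested except where the alternative itself counts fewer cDNAs or genes. The ratio of GFP-TTP-AA to GFP-TTP sites, 1.17, fell below 1 for cDNAs (0.660) and for sites with at least 2 cDNAs (0.848), and was 1.74 for clusters and 1.33 without the rRNA locus. The 3′UTR difference of 2.10 points was 0.775 with each site counted once, 1.41 without the locus, 14.3 over mRNA regions and 1.57 for sites with at least 2 cDNAs. The gene overlap of 20.5% was 31.4% at 5 cDNAs or more. The overlap of positions, 29.4% within 15 nt, was 14.3% at the same nucleotide, 61.7% over all sites and 24.95% without Lars2.

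The 9 3′UTR genes called for GFP-TTP-AA became 16 at a minimum of 5 cDNAs, 2 at 20, 3 over 3′UTR cDNAs and 1 with each site counted once. The 1 gene called for GFP-TTP became 5 at 2-fold and 2 over 3′UTR cDNAs or with a pseudocount of 0.5. Over all regions the 58 genes became 17 at a minimum of 20 cDNAs and 1 with each site counted once, and the 12 genes became 63 at 2-fold, 25 without the locus, 35 with the pseudocount and 5 with each site counted once. The excess of U at all GFP-TTP-AA sites with sequence, 3.55 points, was 0.414 weighted by cDNAs, 6.59 for sites with at least 2 cDNAs and -9.15 in 3′UTRs. The difference in AUUUA stayed between -16.7 and -8.67 points in every alternative run. The difference in the last 100 nt, 18.1 points, was 10.4 in genes that both lists share, Tnf included. This and the other alternatives on 3′ ends and shared sequence were chosen after seeing the data. No paired analysis was possible because each list pools its libraries, and leaving out a replicate was not possible for the same reason.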
